A study of Mus musculus with 9 samples.

Results

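The genes described here carry the names of the proteins of the cytosolic ribosome: Rpl or Rps followed by a digit, together with Rplp0, Rplp1, Rplp2 and Rpsa, without names marked -ps and without the Rps6k kinases. This rule, which uses names only and no measured value, found 86 genes among the 11206 listed in at least 1 library. Of the 86, 79 are ribosomal protein genes, 48 of the large subunit and 31 of the small subunit. A further 6 are copies of such genes that the rule admits by their names (Rpl37rt, Rpl6l, Rps12l1, Rps27rt, Rps3a2 and Rps3a3). The last, Rps19bp1, is named for binding RPS19 and is no part of the ribosome. Because a gene at or below 1 FPKM (fragments per kilobase of transcript, scaled to the mapped fragments of the library) has no row, 59 of the 86 were listed in all 9 libraries and 80 were listed in enough libraries to be tested.

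Milk was taken on lactation day 10 from primiparous ICR females, an outbred stock, with 1 library for each dam. The high fat diet dams (n = 4) ate a food with 60% of its energy as fat and 5.24 kcal per gram, and the control diet dams (n = 5) ate one with 10% as fat and 3.85 kcal per gram, both with 7% of energy as sucrose. Feeding started at 4 weeks of age, 4 weeks before mating, and lasted through pregnancy and lactation, and dams shared cages in pairs within a diet. RNA came from the fat layer, which had been spun a second time in saline to take out trapped cells, and was sequenced from stranded total RNA libraries. The labels tie no dam to a cage, and p-values below measure the spread between dams.

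A ribosome is built from ribosomal RNA and a fixed set of proteins, most of them present in a single copy, so these proteins are needed in like amounts. Their messages are short, abundant in secreting cells, and start with a tract of pyrimidines through which the mTOR kinase sets their translation. They have also left many copies in mammalian genomes, made when the spliced message was copied back into DNA without its introns. Milk fat globules leave the secretory cell wrapped in its membrane and can carry a crescent of its cytoplasm.

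All 10 luminal secretory markers, caseins and Plin2 among them, were listed in every library, with summed levels of 4595 to 19669 FPKM in the high fat diet libraries and 10347 to 21531 FPKM in the control diet libraries. Of the markers of other cells, those of T and B cells, fibroblasts and red cells were listed in no library, the 1 adipocyte marker listed reached 2.49 FPKM in control diet libraries alone, and those of basal epithelium summed to at most 6.06 FPKM on the high fat diet and 8.22 FPKM on the control diet. The 5 neutrophil markers summed to 93.1 FPKM in high fat diet 1, to 0 in high fat diet 2, 3 and 4, and to 4.44 to 14.3 FPKM across control diet libraries, with Ly6g and Cxcr2 listed nowhere. The 5 macrophage markers reached 23.9 FPKM in high fat diet 3 and at most 6.44 FPKM in control diet libraries, and their part in the results below was not tested. High fat diet 3 stood apart, since 2075 genes were listed there. High fat diet 1, 2 and 4 listed 4986 to 7974 and the control diet libraries 7098 to 8903, so the main comparisons of the diets are also given without it. Depth relative to control diet 1, read from the width of the confidence bounds, was 0.823 to 1.59 in high fat diet libraries and 1.00 to 1.21 in control diet libraries.

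Most of the FPKM on ribosomal protein sequence was listed under copies and not under the genes that encode the proteins. When the coding sequence of each gene was searched among the listed genes, 345 listed copies were found, each annotated as a processed pseudogene or as a gene of 1 exon and matching at least 80% of the coding sequence at 90% identity or more. They belong to 76 of 81 ribosomal protein genes, namely the 79 above plus Rpl13 and Rps12, for which copies alone were listed. A gene had a median of 3 listed copies, and Rpl21, a large subunit protein gene, had the most, 25. The gene itself held a median of 6.04% of the FPKM summed over gene and copies. It held under 10% in 45 of the 81 and under 50% in 65.

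The closest pairs show how little separates a gene from its copies. Rps27, which encodes a zinc-binding protein of the small subunit, and Rps27rt have the same coding sequence in all 255 bases. Rpl35a, a large subunit protein gene, and Rpl35a-ps3 differ at 1 of 333 bases, G156A, where the gene's base comes first and positions count from the A of the start codon. Rps19, a small subunit protein gene mutated in Diamond-Blackfan anaemia in humans, and Rps19-ps6 differ at 5 of 438 bases, C6T, T273C, G369A, G372A and C390T. The stretches printed, in GENCODE M21 on GRCm38, are coding bases 1 to 80 of the Rps27 pair, 106 to 205 of the Rpl35a pair and 261 to 400 of the Rps19 pair, with the differing bases in capitals. The genes lie at chr3:90212522-90213651 (minus strand), chr16:33056453-33060189 (plus strand) and chr7:24884371-24889806 (plus strand). The copies lie at chr9:114982371-114982740 (minus strand), chr17:29136972-29137304 (minus strand) and chr12:110898114-110898551 (plus strand).
Rps27: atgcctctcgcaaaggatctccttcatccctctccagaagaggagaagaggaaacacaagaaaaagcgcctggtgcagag
Rps27rt: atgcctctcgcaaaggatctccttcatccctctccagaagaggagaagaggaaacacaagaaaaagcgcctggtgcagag
Rpl35a: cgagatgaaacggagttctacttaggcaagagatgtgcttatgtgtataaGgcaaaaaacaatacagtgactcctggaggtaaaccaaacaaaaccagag
Rpl35a-ps3: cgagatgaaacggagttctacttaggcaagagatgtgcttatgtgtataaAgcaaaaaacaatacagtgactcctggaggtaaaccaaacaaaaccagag
Rps19: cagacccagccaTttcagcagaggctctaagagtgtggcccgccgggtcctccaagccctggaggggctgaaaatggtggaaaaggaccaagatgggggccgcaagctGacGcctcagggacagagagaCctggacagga
Rps19-ps6: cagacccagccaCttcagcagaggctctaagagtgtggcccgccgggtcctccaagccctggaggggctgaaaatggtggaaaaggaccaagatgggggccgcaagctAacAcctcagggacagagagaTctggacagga

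Such closeness was common. Of the copies that align without a gap over the whole coding sequence, 163 in all with those of ribosomal proteins outside the naming rule included, 24 had no differing base and 77 had between 1 and 5. The share of FPKM on the gene went with the identity of its closest copy. Where that copy was identical (21 genes), the gene held a median of 2.37% of the sum, with a range of 0 to 26.1%. Where it was 99 to under 100% identical (36 genes) the median was 3.73%, with a range of 0.0628 to 82.0%. Where it was under 99% identical (19 genes) the median was 54.8%, with a range of 4.18 to 97.6%, so these ranges overlap widely. The 5 genes with no listed copy, Rpl8 and Rplp2 among them, hold all of theirs. How the deposited values shared out a fragment that matches several places is not given in the sources used here, and a sum over copies would count such a fragment more than once if each place received it whole. The value of a single gene with a close copy is uncertain for this reason.

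**Figure D1:**
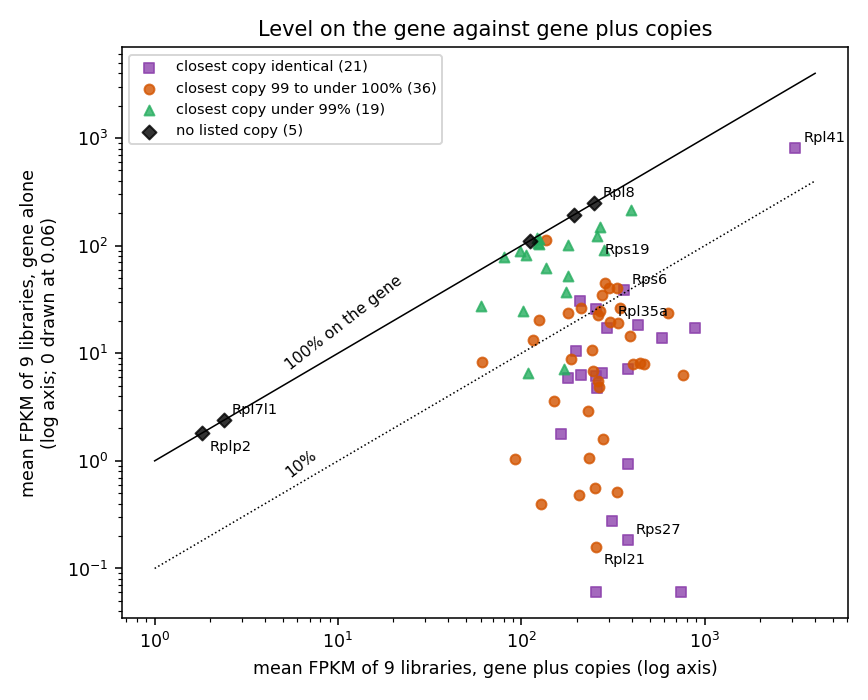
Mean FPKM over 9 libraries of the gene alone (vertical, log axis) against the gene plus its listed copies (horizontal, log axis) for 81 ribosomal protein genes, with the identity of the closest copy as marker. Genes with an identical copy held a median of 2.37% of the sum and those whose closest copy was under 99% identical held 54.8%, and the 2 squares at the foot are Rpl13 and Rps12, which had no listed value of their own.

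Of the 5 names with the highest mean FPKM, 3 were copies. Rpl41, which encodes the smallest protein of the large subunit, had the highest mean of the 86, with 1190.4, 478, 117 and 391 FPKM in high fat diet libraries 1 to 4 and 1835, 393, 1052, 1367 and 515 FPKM in control diet libraries 1 to 5. Rps27rt had 625, 103, 79.2 and 349.6 FPKM on the high fat diet and 744, 218, 462, 600.4 and 241 FPKM on the control diet. The Rps27 gene itself was listed in high fat diet 4 alone, with 1.65 FPKM, and was unlisted in the 5 control diet libraries. Rps12l1, a copy of the small subunit protein gene Rps12, had 455, 349.9, 51.3 and 209 FPKM on the high fat diet and 552, 130.1, 348, 472 and 152 FPKM on the control diet. Rps12-ps3, a second copy with the same coding sequence, stood close to it in every library, from 49.3 FPKM in high fat diet 3 to 610.0 FPKM in control diet 1. Rpl37rt, a copy of the large subunit protein gene Rpl37, ran from 51.6 to 485 FPKM on the high fat diet and from 171 to 616 FPKM on the control diet. Rpl37 itself was listed in no high fat diet library and in 3 control diet libraries.

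Rpl8, a core protein beside the peptidyl transferase centre, was the most abundant gene with no listed copy. It had 336, 253, 33.5 and 140.4 FPKM on the high fat diet and 478, 135, 337, 397 and 145 FPKM on the control diet. The diets overlap in these values, and high fat diet 3 is the lowest library. Rps3, a small subunit protein at the entry of the messenger RNA path, likewise had no listed copy and ran from 16.3 to 135 FPKM on the high fat diet and from 64.6 to 213 FPKM on the control diet. For both genes the value on the gene is the whole of the listed signal.

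Taking gene and copies together brought the ribosomal proteins closer to one another. In high fat diet 1, for example, 17 of the 81 genes reached 100 FPKM alone and 77 did with their copies, and in control diet 1 the numbers were 17 and 79. The SD of log2 FPKM across listed genes was 1.67 to 2.37 in high fat diet libraries and 2.06 to 2.45 in control diet libraries for the gene alone. It was 1.15 to 1.5 in high fat diet libraries and 1.21 to 1.40 in control diet libraries for gene plus copies. While 28 of the 81 genes were missing from at least 1 library, 2 of the sums were, those of Rplp2 and Rpl7l1. The median gene alone stood at 18.9, 8.19, 1.77 and 8.89 FPKM on the high fat diet and at 27.4, 8.97, 24.7, 24.4 and 10.2 FPKM on the control diet.

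**Figure D2:**
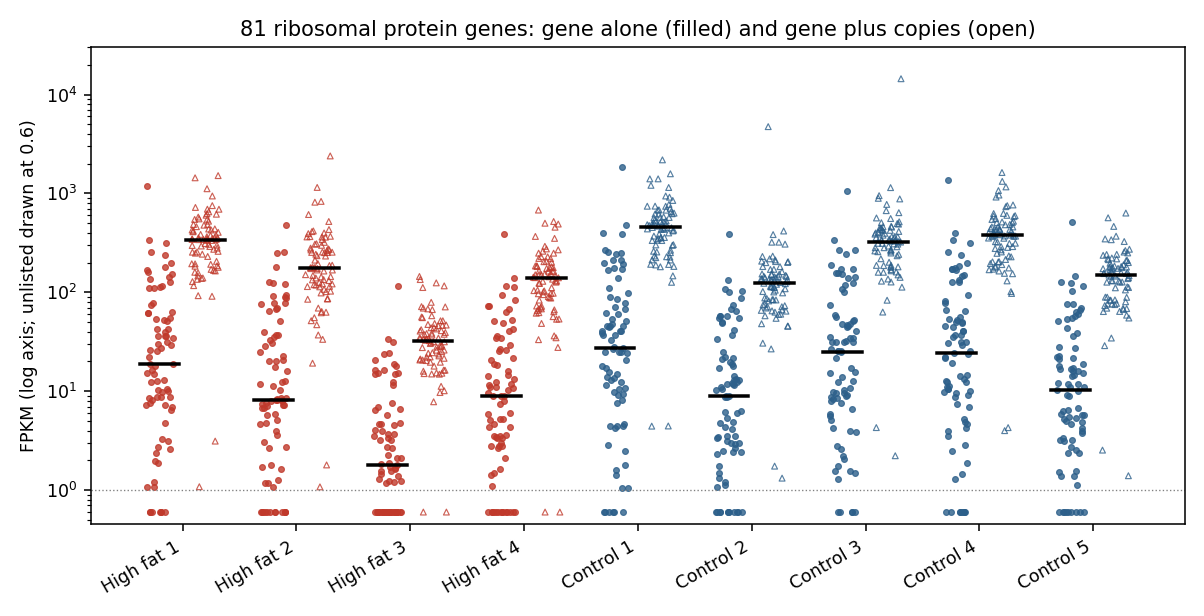
FPKM (log axis) of 81 ribosomal protein genes in each library, as the gene alone (filled circles) and as the gene plus its listed copies (open triangles), with medians as black bars and unlisted genes drawn at 0.6. The median gene alone ran from 1.77 to 18.9 FPKM on the high fat diet and from 8.97 to 27.4 FPKM on the control diet, and the sums lie higher and closer together in each library.

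The sum also removed large swings of single genes. Rps19 had 237, 127, 1.29 and 72.6 FPKM on the high fat diet and 26.5, 103, 155, 253 and 124 FPKM on the control diet, so that high fat diet 3 and control diet 1 were its lowest libraries. Rps19-ps6 had 99.8, 169, 23.9 and 92.3 FPKM on the high fat diet and 316, 41.0, 177, 102 and 47.8 FPKM on the control diet. It was thus highest in control diet 1, where the gene was low. Summed over the gene and its 5 copies, control diet 1 stood at 370.3 FPKM, beside 354 and 382 FPKM in control diet 3 and 4. After each library was centred on its median, the within-diet SD of log2 FPKM of Rps19 was 1.77 for the gene and 0.36 for the sum. Over the 53 ribosomal protein genes listed in all 9 libraries, the median within-diet SD was 0.33 for the gene and 0.22 for the sum, and it was smaller for the sum in 45. An exception was Rpl41, at 0.22 for the gene and 1.42 for the sum, whose copy Gm3699, matching 96.2% of a coding sequence of 78 bases, had 13196 FPKM in control diet 3 and 0 FPKM in 6 libraries. Rps19 and its copies, Gm3699 and the genes with no listed copy were singled out after their values were seen.

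**Figure D3:**
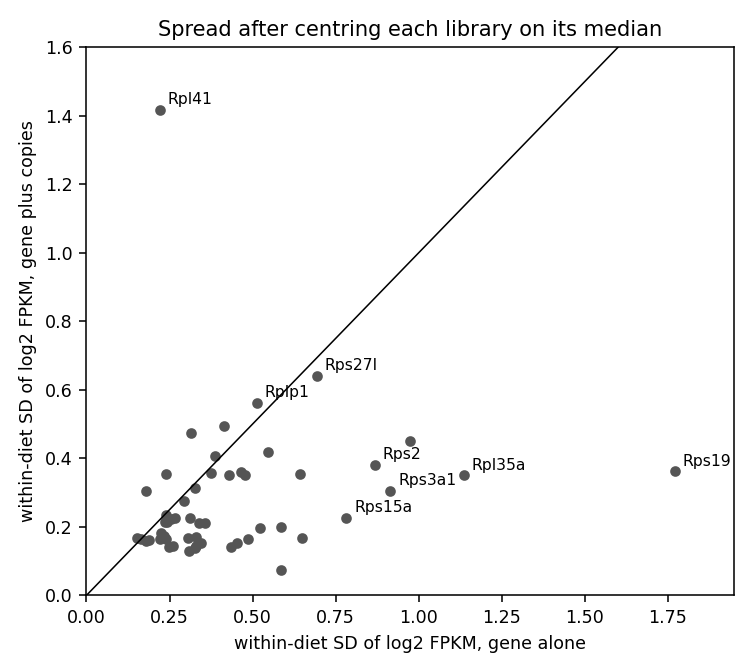
Within-diet SD of log2 FPKM after centring each library on its median, for the gene plus its copies (vertical) against the gene alone (horizontal), in 53 ribosomal protein genes listed in all 9 libraries, with a line at equal values. The point of Rps19 lies at 1.77 and 0.36, 45 of 53 points lie below the line, and Rpl41 lies above it at 0.22 and 1.42.

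Diet was compared by limma on log2(FPKM + 1) over 7983 genes, with Benjamini-Hochberg adjustment and a threshold of 0.05. All 80 tested members had a log2 fold change below 0 (high fat diet against control diet) on the deposited scale, as did 98.8% of all tested genes, while 52 of the 80 were above 0 after median-of-ratios scaling. For genes near 1 FPKM, the added 1 shrinks fold changes, while setting unlisted values to 0 can enlarge them. Of the 80 members 1, Rpl35a, was called lower, against 20.8% of all tested genes, and 0 members were called higher, against 0% of all genes. Among the 1847 genes listed in all 9 libraries, 59 of them members, 15 were called lower, 1 of them a member. In the fit over 7983 genes with 1 library left out, 21 members were called lower without high fat diet 1, against 65.3% of genes. Without control diet 2 there were 4, against 29.4%. The count was 0 without any 1 of high fat diet 2, 3 and 4 and control diet 3 and 4. Calls over all genes fell as low as 16 of 7983, without high fat diet 3. With all 9 libraries, 7 members had an unadjusted p under 0.05, against 49.6% of all tested genes in either direction. The members' median log2 fold change was -0.94, and that of all tested genes was -1.08. The large subunit genes (44 tested) and the small subunit genes (29 tested) had medians of -0.91 and -0.96.

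Relative to all tested genes, the members' median log2 fold change lay above the common median on each of the 4 scales tried, a description with no test. It exceeded that of all tested genes by 0.14 on the deposited scale and by 0.71 after median-of-ratios scaling, which shifts the median of all genes by 0.52. The excess was 0.27 after quantile normalization and 0.68 with each library set to 1 sum of protein-coding FPKM, which shift it by 1.11 and 0.41. The 4 scales rescale the same values, so they are not separate support. Unlisted genes stay at 0 on the median-of-ratios and sum scales. Of the 80 members 59 were listed in all 9 libraries, against 1847 of all 7983 tested genes. The median of log2(FPKM + 1) over all tested genes was 0 in high fat diet 3. No comparison with genes of like abundance was made. On the median-of-ratios scale 0 members and 0% of all tested genes were called in either direction, and 8 members had an unadjusted p under 0.05, against 20.7% of all tested genes. On the deposited scale without high fat diet 3, the members' median was -0.37 and that of all tested genes -0.77. There 0 members were called, against 16 of 7983 genes. FPKM is scaled to the mapped fragments of a library, so these fold changes do not measure total RNA. Nuclear protein-coding genes summed to 25470 to 134733 FPKM in high fat diet libraries and to 69835 to 187222 FPKM in control diet libraries. Sums over all rows were 1.37e+06 to 5.39e+06 FPKM and 2.67e+06 to 5.61e+06 FPKM in turn. The cause of these differences was not tested, and in bulk RNA, fewer cells and less RNA per cell cannot be told apart.

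As a share of the FPKM of nuclear protein-coding genes, the protein-coding members held 4.43, 4.90, 2.35 and 3.79% on the high fat diet and 4.36, 3.27, 4.25, 3.60 and 2.40% on the control diet. The diets overlap in this share. With 20 milk protein genes, such as caseins and Wap, taken out of the sum, the shares were 8.99, 5.58, 7.64 and 7.77% on the high fat diet and 6.01, 4.98, 6.39, 5.07 and 4.10% on the control diet. Here high fat diet 1, 3 and 4 lay above every control diet library. Over all rows, non-coding RNA included, the members held a mean of 0.120% ± 0.056 (SD, n = 4) on the high fat diet and 0.155% ± 0.054 (SD, n = 5) on the control diet.

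**Figure D4:**
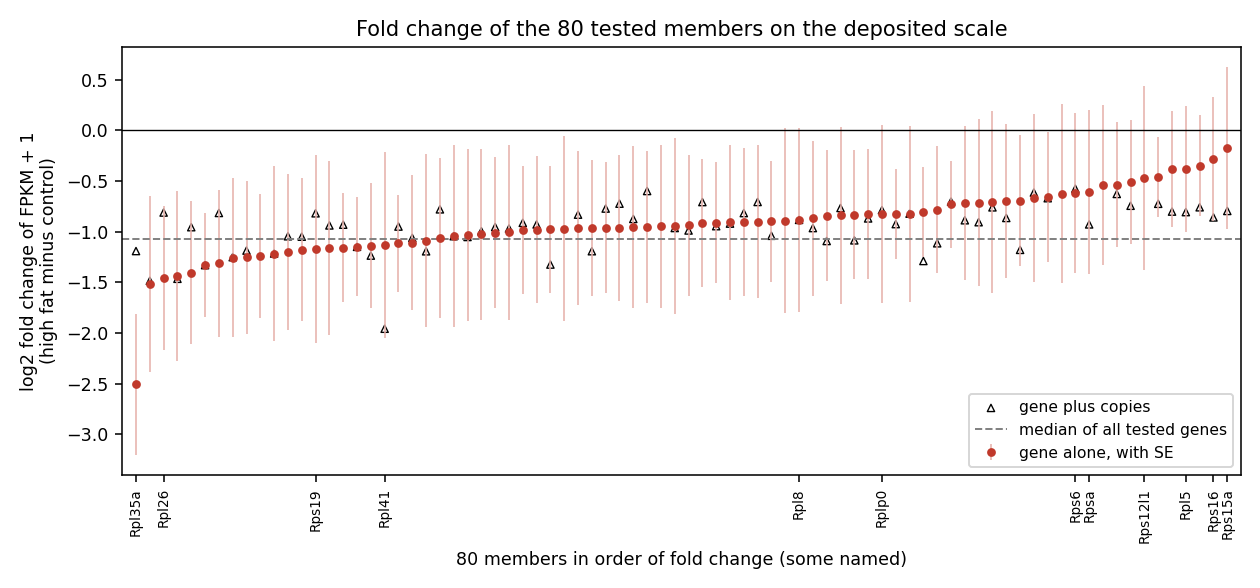
Log2 fold change of FPKM + 1, high fat diet minus control diet, with its standard error, for the 80 tested members in order of the value (filled circles, some of those described in the text named on the axis), and for the same gene summed with its copies (open triangles), with a dashed line at the median of all 7983 tested genes. All 80 values lie below 0 on this scale, around a members' median of -0.94, and Rpl35a at -2.51 is the one member called.

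Rpl35a was the member with the largest fall. It had 8.77, 1.70, 4.70 and 2.97 FPKM on the high fat diet and 40.3, 8.97, 51.5, 35.5 and 21.4 FPKM on the control diet. The diets did not overlap, as for 1 of 80 members against 11.1% of all tested genes, but the highest high fat diet library and the lowest control diet library were close, with confidence bounds of 5.53 to 12.0 and 5.51 to 12.4 FPKM. The mean was 4.53 ± 3.08 FPKM (SD, n = 4) on the high fat diet and 31.5 ± 16.6 FPKM (SD, n = 5) on the control diet, with a log2 fold change of -2.51 (SE 0.70) and a limma adjusted p of 0.0215. The call was lost when any 1 of the libraries high fat diet 2, 3 and 4 and control diet 3 and 4 was left out, with adjusted p values of 0.0811, 0.0814, 0.0701, 0.0826 and 0.0520 in turn. It was also lost after median-of-ratios scaling (log2 fold change -1.37, adjusted p = 0.161).

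The gene is a small part of the listed Rpl35a sequence. Rpl35a-ps2, Rpl35a-ps3, Rpl35a-ps4 and Gm10243, on chromosomes 1, 17, 2 and 6, had nearly the same values as one another, for example 82.6, 83.2, 82.7 and 83.7 FPKM in high fat diet 1 and 115, 119, 115 and 118 FPKM in control diet 1. Gene and 9 copies together had 461, 122, 40.9 and 182 FPKM on the high fat diet and 679.7, 139.96, 423, 506 and 189.6 FPKM on the control diet. Those sums overlap between diets. Their log2 fold change was -1.19 (SE 0.91) with a limma adjusted p of 0.230. The gene held 1.9, 1.39, 11.5 and 1.63% of the sum on the high fat diet and 5.94, 6.41, 12.2, 7.00 and 11.3% on the control diet, with high fat diet 3 in the range of the control diet libraries.

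**Figure D5:**
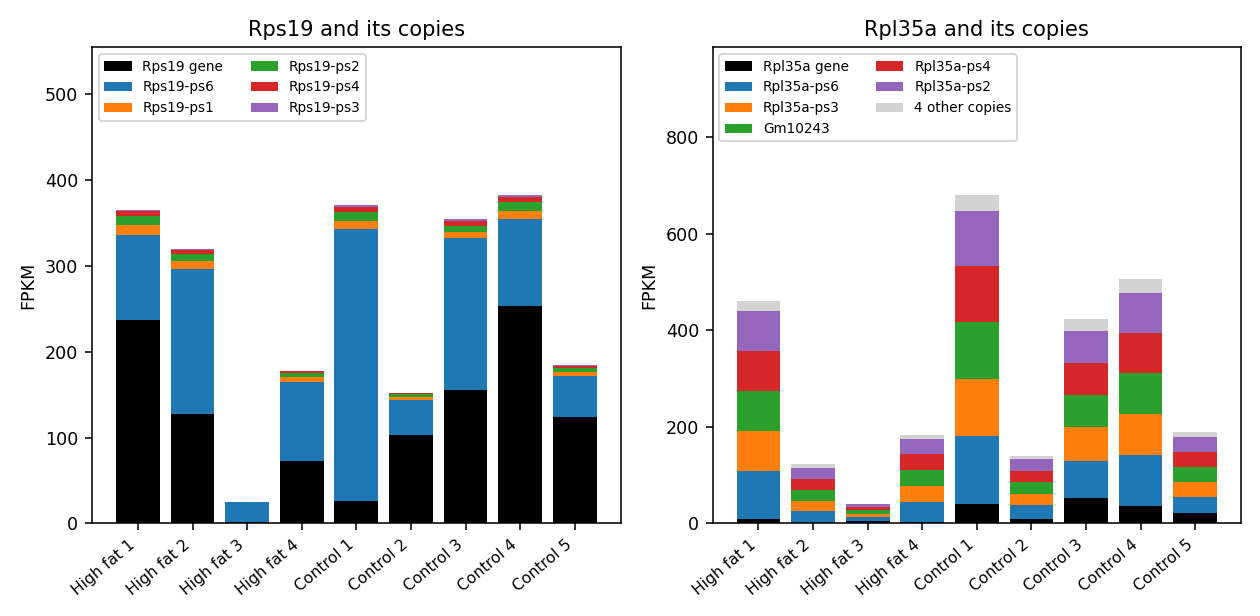
FPKM of Rps19 (left) and Rpl35a (right) in each library, stacked as the gene (black) and its listed copies (colours, the 5 largest named). In control diet 1 the Rps19 gene stood at 26.5 FPKM and Rps19-ps6 at 316 FPKM, within a total like that of control diet 3 and 4, and the Rpl35a gene was 1.39 to 12.2% of each bar.

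With copies added, 1 of 82 sums and genes was called lower, against 24.2% of 7693 rows tested, and 0 were called higher, against 0%. It was Rpl7l1, a paralogue of Rpl7 with a role in ribosome assembly and no listed copy, whose adjusted p was 0.0490 in this fit and 0.0519 where each gene keeps its own row. It had 3.13, 1.08, 0 and 0 FPKM on the high fat diet and 4.45, 1.75, 4.29, 4.29 and 2.54 FPKM on the control diet. With 1 library left out, between 0 and 5 of the 82 were called, 5 of them without high fat diet 1, against 67.8% of all rows, and 2 without control diet 2, against 32.4%. The count was 0 without any other library, high fat diet 3 included, where 16 to 878 of the 7693 rows were called lower. The median log2 fold change of the sums was -0.93, against -1.09 for all rows, and their range, from -1.96 to -0.55, was narrower than the -2.51 to -0.18 of the genes alone.

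Rpl26, which lies at the mouth of the exit tunnel, was also at the low end of the fold changes of genes on their own rows. It had 26, 5.14, 0 and 8.89 FPKM on the high fat diet and 24.8, 18.2, 17.3, 24.0 and 6.26 FPKM on the control diet. High fat diet 1 was above the control diet range, high fat diet 4 was within it, and high fat diet 2 and 3 were below it. The log2 fold change was -1.46 (SE 0.71) and did not pass the test in limma (adjusted p = 0.0950). At the other end, the small subunit genes Rps15a and Rps16 and the large subunit gene Rpl36a had log2 fold changes of -0.18, -0.28 and -0.35 on the deposited scale and 1.00, 0.71 and 0.11 after median-of-ratios scaling, with none called on either. With copies added, these 4 genes were near the sums' median of -0.93 on the deposited scale, with Rpl26 at -0.81 (adjusted p = 0.402), Rps15a at -0.80, Rps16 at -0.86 and Rpl36a at -0.76.

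Setting each library to the median of the tested members asks whether a single protein gene departs from the family. By limma, 0 of 80 members were called in that fit, against 0% of all tested genes, and 5 had an unadjusted p under 0.05, against 3.13% of all tested genes. The count of calls was also 0 without high fat diet 3. They were Rpl35a, at -1.43 (unadjusted p = 0.0127), and 4 at positive values. Rps16 had a relative log2 fold change of 0.80, Rpl5 of 0.70, Rps12l1 of 0.61 and Rps6 of 0.46. Summed with copies, the relative values were -0.23 for Rpl35a, 0.10 for Rps16, 0.15 for Rpl5, 0.41 for Rps12, to which Rps12l1 belongs, and 0.39 for Rps6, with a limma adjusted p of 0.999715 for each.

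Rps6, the small subunit protein that S6 kinase phosphorylates downstream of mTOR, had 62.9, 30.5, 6.55 and 29.1 FPKM on the high fat diet and 70.6, 19.6, 52.9, 52.4 and 22.9 FPKM on the control diet. Rps6-ps4, with the same coding sequence, had 382, 436, 42.2 and 180.3 FPKM on the high fat diet and 499, 137, 337, 424 and 174 FPKM on the control diet. The diets overlap in both. Rpl5 and Rpl11 bind 5S ribosomal RNA and, when assembly fails, the p53 regulator MDM2. Rpl5 had 10.6, 5.94, 1.24 and 4.30 FPKM on the high fat diet and 9.16, 2.48, 7.69, 9.88 and 4.97 FPKM on the control diet. Rpl11 had 7.30, 6.82, 0 and 5.21 FPKM on the high fat diet and 12.9, 2.40, 9.58, 9.97 and 6.74 FPKM on the control diet. Neither gene was called, and high fat diet 3 was the lowest library in both.

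The stalk that recruits translation factors is made of Rplp0 as its base and of Rplp1 and Rplp2 in pairs. Rplp0 had 197, 123, 23.9 and 114 FPKM on the high fat diet and 271, 86.9, 188, 238 and 102 FPKM on the control diet. Rplp1 had 112, 78.8, 20.7 and 40.8 FPKM on the high fat diet and 167, 73.9, 247, 135 and 44.1 FPKM on the control diet. Rplp2, its partner, had 1.08, 1.8, 0 and 0 FPKM on the high fat diet and 4.44, 1.32, 2.23, 4.00 and 1.40 FPKM on the control diet, with no listed copy. The log2 ratio of Rplp1 to Rplp2 was between 4.98 and 6.79 in the 7 libraries that listed both. It is imprecise, since the lower confidence bound of Rplp2 was 0 in high fat diet 1 and 2 and control diet 2, 3 and 5. None of the 3 was called.

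No member of the other groups was called. Of the neighbours of the peptidyl transferase centre (3 tested), the exit tunnel proteins (8), the small subunit proteins along the messenger RNA path (6) and the proteins ubiquitylated at collided ribosomes (2), 0 were called, with median log2 fold changes of -0.88, -0.91, -0.93 and -1.05 on the deposited scale. After median-of-ratios scaling those medians were 0.14, 0.06, 0.17 and 0.00157. Rpl39, of the exit tunnel, had 40.1, 8.09, 3.93 and 13.1 FPKM on the high fat diet and 54.0, 12.0, 35.7, 53.5 and 16.7 FPKM on the control diet. Rpsa, which sits where the messenger RNA leaves, had 54.4, 67.6, 5.73 and 27 FPKM on the high fat diet and 86.6, 21.3, 45.4, 65.9 and 27.7 FPKM on the control diet. In both, the diets overlap.

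Paralogues that replace one another in some tissues were listed in unequal amounts on the rows of the genes, and the order of some turned when copies were added. On its own row Rpl22l1 was below Rpl22 in every library, with log2 ratios of -3.04, -5.34, -2.86 and -3.33 on the high fat diet and -3.34, -3.77, -3.63, -3.37 and -3.28 on the control diet. The difference between diets was -0.17 (exact permutation test, 2-sided, p = 0.944, smallest possible p 0.00794), and this was the 1 pair listed in all 9 libraries and so the 1 tested. High fat diet 2 was the lowest library, and without it the difference was 0.40 (exact permutation test, p = 0.0893). That test has fewer arrangements, so its smallest possible p is larger. Rpl22l1 was near the floor in high fat diet 2, at 1.27 FPKM with confidence bounds of 0 to 4.24 FPKM. In high fat diet 3 it was at 2.10 FPKM, with bounds of 0 to 4.84 FPKM. With copies on both sides the ratios were -0.60, -0.89, 0.0119 and -0.69 on the high fat diet and -0.37, -1.03, -1.04, -0.73 and -0.96 on the control diet, so that the gap was smaller and the order turned in high fat diet 3. The difference between diets was then 0.28 (exact permutation test, p = 0.246). On the rows of the genes Rpl36al exceeded Rpl36a by a log2 ratio of 5.28 to 6.65 in the 7 libraries with both, but with copies it was below Rpl36a in 8 of 9 libraries, with ratios of -0.76 to 0.0502. Rps27l was listed in every library at 115, 17.6, 16.3 and 34.7 FPKM on the high fat diet and 177, 41.8, 109, 127 and 60.0 FPKM on the control diet. Rpl10l, Rpl3l, Rpl39l and Rps4l, the paralogues of Rpl10, Rpl3, Rpl39 and Rps4x, were at or below 1 FPKM in all 9 libraries.

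Fau and Rack1 belong to the ribosome and are missed by the naming rule. Fau, whose product carries Rps30, had 17.6, 11.8, 1.66 and 7.61 FPKM on the high fat diet and 28.7, 9.63, 18.3, 23.6 and 11.0 FPKM on the control diet. Rack1, a scaffold on the small subunit, had 211, 105, 22.2 and 83.9 FPKM on the high fat diet and 318, 83.3, 214, 259.7 and 98.1 FPKM on the control diet. The diets overlap in both, and neither was called, with log2 fold changes of -1.05 for Fau and -1.07 for Rack1. Of 16 tested messages of translation factors and others that also begin with a pyrimidine tract, 0 were called, with a median of -0.97. The smallest unadjusted p-values among them were those of Eif2s3x and Btf3, with log2 fold changes of -1.48 and -1.42 and limma adjusted p of 0.0548 and 0.0724.

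Of all tested genes 20.8% were called lower, with a median log2 fold change of -1.08. Among 34 tested ribosome assembly genes 1 was called lower, with a median log2 fold change of -0.99. It was Dkc1, the pseudouridine synthase of box H/ACA particles, with 1.42, 0, 0 and 0 FPKM on the high fat diet and 3.98, 1.67, 2.36, 4.36 and 2.33 FPKM on the control diet (log2 fold change -1.61, limma adjusted p = 0.0263). Among 15 tested genes of the mTOR pathway and regulators of these messages 5 were called lower, with a median of -1.27. The 4 with the smallest p were Myc, which drives transcription of ribosomal protein genes, at -2.12, Rptor, the scaffold of mTOR complex 1, at -1.47, Larp1, which binds the pyrimidine tract, at -1.39, and Eif4ebp1, an inhibitor of translation initiation, at -1.97. Eif4ebp1 had 13.1, 2.26, 1.03 and 5.90 FPKM on the high fat diet and 16.5, 11.6, 23.1, 23.9 and 21.9 FPKM on the control diet, and the other 3 were listed in 1 high fat diet library each. All 5 named genes, Dkc1 included, lost the call without high fat diet 2, 3 or 4 or control diet 3, with adjusted p values up to 0.118. Mitochondrial ribosomal proteins (75 tested) had 5 called lower and a median of -1.07. None of these lists had a gene called after median-of-ratios scaling, where the medians of the assembly, mTOR and mitochondrial lists were -0.40, -0.78 and -0.37, beside -0.55 for all tested genes and 0.16 for the members.

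The promoters share features that the naming rule did not use. RefSeq promoter windows (GRCm38.p6, 250 bases before to 50 after the start) were matched for 59 of the 79 genes, 70 windows in all. CGGAAG, an Ets-type site, was present on either strand in 62.9% of them and in 16.9% of 32851 windows of all genes, and AAGATGGCG, a YY1-type site, in 8.57% and 1.40%. That 8.57% is 6 windows from 4 genes, and the 3 overlapping windows of Rpl35a are among them. Within 15 bases of the start, on the gene strand, CTTTCC was present in 12.9% and 1.42%, CCTTTC, which overlaps it, in 10.0% and 1.27%, CTTTTC in 5.71% and 1.06%, and CTTTCT in 4.29% and 1.48%. A start at C followed by 4 pyrimidines was annotated in 18.6% and 2.51%, and TATAAA 40 to 20 bases before the start in 1.43% and 1.87%. The stretches that follow hold 30 bases before to 10 after the annotated start of Rps6 (chr4:86857358-86857397, minus strand), Rpl15 (chr14:18270977-18271016, minus strand), Rpl28 (chr7:4792935-4792974, plus strand), Rps15a (chr7:118116138-118116177, minus strand) and the middle one of 3 starts of Rpl35a (chr16:33056452-33056491, plus strand). They were chosen to show the tract, with the run of C and T over the start in capitals, and Rpl35a because it was the member called.
Rps6: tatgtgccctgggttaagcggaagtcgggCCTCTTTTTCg
Rpl15: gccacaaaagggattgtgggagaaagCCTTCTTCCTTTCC
Rpl28: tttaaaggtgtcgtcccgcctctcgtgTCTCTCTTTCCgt
Rps15a: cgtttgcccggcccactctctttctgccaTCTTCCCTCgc
Rpl35a: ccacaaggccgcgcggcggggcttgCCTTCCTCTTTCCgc

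A run of at least 8 pyrimidines over the annotated start was present in 24.3% of the members' windows and in 3.86% of all windows. The Rpl35a start shown has a run of 13, and its other starts have runs of 4 and 0.

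Many introns of these genes hold small nucleolar RNAs, which guide the modification of ribosomal RNA. Of 93 snoRNA rows, 11 lay within 8 of the member genes, and none of the 11 was listed in all 9 libraries. Of these 11, 2, 0, 1 and 1 were listed on the high fat diet and 1, 7, 6, 3 and 6 on the control diet. The high fat diet libraries listed 7974, 5124, 2075 and 4986 genes of any kind. The control diet libraries listed 8487, 7098, 8903, 8695 and 8746, and no share over all 93 snoRNA rows is given here. The counts are therefore not read as a difference between the diets particular to these 11. Snord21, inside Rpl5, was listed in control diet 2 alone, at 3459 FPKM. Snord15b, inside Rps3, was listed at 94.0 FPKM in high fat diet 4 alone among the high fat diet libraries, and at 106, 173, 36.7 and 490.4 FPKM in control diet 2 to 5. Snora78, inside Rps2, was listed at 153 and 608 FPKM in control diet 2 and 5 and in no high fat diet library. Gm26448, inside Rpsa, was listed at 9.45 and 14.6 FPKM in high fat diet 1 and 3. In control diet 1 to 5 it was at 5.96, 11.6, 21.5, 4.44 and 59.3 FPKM. These snoRNAs were named after their values were seen.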

How the data were processed

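Per the submitters' processing notes, the tools named are FastQC, Trimmomatic, TopHat, Bowtie2, Cufflinks, HTSeq and DESeq2; for versions, genome build, strand setting and the treatment of fragments that match several places, nothing is given in the sources used here. Per the file headers, the deposited values are FPKM per gene with confidence bounds, and rows at or below 1 FPKM are absent, so an unlisted gene was set to 0. No read counts were used here, so no interval from counting could be given. Relative depth was read from the bounds of 507 genes with 1 transcript. The deposited coordinates equal those of GENCODE M21 (GRCm38) for 9293 of 11206 genes.

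Genes at 1 FPKM or more in at least 4 libraries were tested with limma 3.58.1 (R 4.3.3, mean-variance trend, 2-sided) on log2(FPKM + 1), high fat diet minus control diet, with Benjamini-Hochberg adjustment over all genes at 0.05. A second fit first subtracted the tested members' median from each library. Copies were found with BLAST+ 2.17.0, and adding copies to their gene was chosen after seeing the data. Motif searches used Python 3.11.15. The fit was tested on simulated data with independent noise and no shift of a whole library, so that test does not cover such shifts. Replicate numbers were not used to pair the dams in the main fits.

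Members and gene lists were chosen with earlier results of these data known. The rule for names took members called, the 5 smallest p in the second fit, the 5 highest means, the 3 lowest and 3 highest fold changes, members with set roles, paralogue pairs and members not listed in all libraries, and up to 4 genes of smallest p in each other list. Some genes that this rule selects are not reported here. Rps19, Rps3, Rpl15, Rpl28, the copies and the snoRNAs fall outside it and were named after their values were seen. Alternatives were other pseudocounts, filters, scalings, weights, a replicate block and leaving out libraries.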

Additional observations from a re-analysis of the deposited data

Results flagged for a closer look

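Of 60 groups of libraries examined for a sample far from the others, 1 met the criterion, and chance alone would mark about 1 in 20 groups. The Rps27 gene had a value of 1.65 FPKM in high fat diet 4, while high fat diet 1, 2 and 3 and the 5 control diet libraries did not list it. Its copy Rps27rt, with the same coding sequence, stood at 349.6 FPKM in that library.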

How the results depend on the processing

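Values with 0 members called lower were obtained with a pseudocount of 0.1, no filter, median-of-ratios, quantile or protein-coding-sum scaling, no variance trend, the replicate block, and without high fat diet 2 and 3 together; array weights gave 58. Over all genes, 145 were lower with a pseudocount of 0.1, 13 with no filter, 15 among genes listed in all 9 libraries, 0 under each of the 3 scalings, 87 with unlisted genes at 1 FPKM, 11 with no variance trend, and 0 without high fat diet 2 and 3 together. Array weights gave 6714 lower and 13 higher, and the replicate block gave 29 lower and 4 higher. Same-numbered dams correlated at 0.14, -0.28, 0.04 and -0.09, and dams of unlike number at -0.28 to 0.31. These values, which carry shifts of whole libraries, show no pairing by number and cannot exclude it. The members' median log2 fold change was 0.16, 0.30 and 0.0103 under median-of-ratios, quantile and protein-coding-sum scaling. In that order Rps15a was at 1.00, 1.18 and 0.84, Rps16 at 0.71, 0.91 and 0.58, and Rpl36a at 0.11, 0.51 and 0.0220; without high fat diet 2 and 3, Rps16 was at 0.0818 and Rpl36a at 0.0437. The share held by members averaged 3.87% on the high fat diet and 3.58% on the control diet over nuclear protein-coding FPKM, and 7.49% and 5.31% without milk proteins. With a pseudocount of 1, the Rpl22l1 to Rpl22 difference was 0.0712, and with copies added 0.28. The cause of these changes was not tested. Leaving out 1 library gave 16 to 5215 genes lower and 0 to 4 higher, 0 to 21 members lower and 0 higher, and a members' median of -1.38 to -0.37. Log2 fold changes ran from -2.88 to -2.22 for Rpl35a, -2.15 to -0.57 for Rpl26, -0.82 to 0.53 for Rps15a, -0.61 to 0.16 for Rps16 and -0.71 to 0.0146 for Rpl36a. Mean shares ran from 0.0977 to 0.143% on the high fat diet and 0.143 to 0.173% on the control diet, and the Rpl22l1 to Rpl22 difference from -0.43 to 0.40. The fit relative to the members' median called 0 members under every alternative run. FPKM without read counts, and the missing rows at or below 1 FPKM, limit the precision of low members.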
